A study of Mus musculus with 20 samples.

Results

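The genes described here encode the folding and translocation machinery of the endoplasmic reticulum (ER): its chaperones, disulfide isomerases, unfolded protein sensors, degradation factors and translocon subunits. They were 35 mouse genes chosen by symbol, and each was found once in the input table and once in the TRAP table among 52636 genes. Of these, 34 were above 0 in at least 1 library and entered every test, and Derl3, a membrane protein of the ER degradation machinery, was listed at 0 TPM in all 20 libraries. Their levels were followed in macrophages grown in culture from fetal livers at day E14.5 (the growth protocol gives an earlier day), in medium conditioned by L cells. There were 5 animals, all expressing the ribosomal protein L10a fused to EGFP and all carrying Csf1r-iCre, which recombines floxed DNA in the macrophage lineage. The controls WT-280 and WT-281 had HuR +/+, whereas KO-179, KO-84 and KO-94 had HuR fl/fl and are called knockout-labelled below. Values of the 5 animals are listed in the order WT-280, WT-281, KO-84, KO-94, KO-179. Macrophages of each animal were kept for 18 h in normoxia (20% O2) or hypoxia (1% O2). Total RNA (input) and the RNA bound to purified tagged ribosomes (TRAP, translating ribosome affinity purification) came from the same cleared lysate, divided. Each of the 4 pairings of oxygen with fraction therefore has 2 control libraries and 3 that are knockout-labelled, 20 in all.

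Secreted and membrane proteins enter the ER through the Sec61 channel, beside which the TRAP complex of signal sequence receptors (Ssr1 to Ssr4; unrelated to the purification of the same name) assists translocation. Inside, the Hsp70 protein BiP (Hspa5) and its co-chaperones, the Hsp90 protein GRP94 (Hsp90b1), the lectins calreticulin and calnexin, and protein disulfide isomerases fold them. Unfolded protein releases BiP from sensors such as IRE1 (Ern1) and ATF6; IRE1 then splices Xbp1 mRNA, and the resulting factors raise the transcription of chaperones and of the machinery that extracts misfolded proteins for degradation. Macrophages depend on this machinery for secreted cytokines, lysosomal enzymes and surface receptors. HuR, the product of Elavl1, binds AU-rich elements in mRNAs.

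The transcriptional arm of this response is written in the promoters, and 27 of the 35 genes had a promoter in the RefSeq table (build GRCm38.p6; 250 bases before to 50 bases after the start site); Hyou1, Sil1, Hspa13, Manf, Atf6, Derl1, Sec61a1 and Ssr2 had none. The motifs below were searched on both strands, and no matches overlapped among the members. The ER stress response element ERSE (CCAAT and CCACG with 9 bases of any kind between them) was present in 9 of 27 members (33.3%) and in 37 of 27025 genes with a promoter (0.137%). The 9 were Calr, Canx, Creld2, Derl3, Dnajc3, Hsp90b1, Hspa5, Pdia6 and Syvn1, and Hsp90b1 held 2 sites. ERSE-II (ATTGG and CCACG with 1 base of any kind between them) was present in Dnajb11 and Herpud1, 7.41% of members against 0.0444% of genes. The XBP1 element UPRE (TGACGTGG) was present in 1 member, Txndc5 (3.7% against 0.714%). A gene with several start sites counted if any of its windows matched, and only 1 window of Txndc5 held the UPRE. A match describes letters in this window and is not a shown binding site. The ERSE is named for this response and the members were chosen as ER genes. The shares therefore describe the list and are no independent test. The promoters below are those of the chaperones with an ERSE whose levels are given most fully, and of P4hb, which holds none of the 3 motifs in this window and had the clearest difference between TRAP and input. Letters run 5′ to 3′ on the strand of the gene, and capitals mark ERSE sites on either strand. They lie at chr2:34771840-34772139 (Hspa5, plus strand), chr10:86705395-86705694 (Hsp90b1, minus), chr8:84846882-84847181 (Calr, minus) and chr11:120573204-120573503 (P4hb, minus).
Hspa5: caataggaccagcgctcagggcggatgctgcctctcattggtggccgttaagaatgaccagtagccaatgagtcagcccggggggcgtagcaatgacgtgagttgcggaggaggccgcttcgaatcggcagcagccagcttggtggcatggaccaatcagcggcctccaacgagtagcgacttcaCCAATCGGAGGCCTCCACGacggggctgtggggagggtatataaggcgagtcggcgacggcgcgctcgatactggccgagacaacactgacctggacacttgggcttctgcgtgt
Hsp90b1: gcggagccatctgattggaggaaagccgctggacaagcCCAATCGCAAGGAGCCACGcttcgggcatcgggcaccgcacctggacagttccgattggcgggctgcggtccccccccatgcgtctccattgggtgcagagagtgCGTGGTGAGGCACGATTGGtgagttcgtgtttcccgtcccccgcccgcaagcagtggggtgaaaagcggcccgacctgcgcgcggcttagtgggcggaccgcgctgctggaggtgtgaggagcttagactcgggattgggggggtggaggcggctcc
Calr: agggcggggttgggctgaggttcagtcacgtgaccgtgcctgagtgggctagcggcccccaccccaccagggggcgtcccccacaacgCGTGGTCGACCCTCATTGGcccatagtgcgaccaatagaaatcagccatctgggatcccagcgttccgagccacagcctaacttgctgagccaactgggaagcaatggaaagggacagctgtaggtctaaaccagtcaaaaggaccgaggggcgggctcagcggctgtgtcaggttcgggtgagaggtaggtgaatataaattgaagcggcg
P4hb: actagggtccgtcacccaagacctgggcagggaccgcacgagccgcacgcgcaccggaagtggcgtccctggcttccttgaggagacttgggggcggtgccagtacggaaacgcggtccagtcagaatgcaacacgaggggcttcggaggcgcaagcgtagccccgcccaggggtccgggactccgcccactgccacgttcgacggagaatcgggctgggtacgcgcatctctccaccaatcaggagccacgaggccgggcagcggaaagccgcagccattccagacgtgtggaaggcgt

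**Figure D1:**
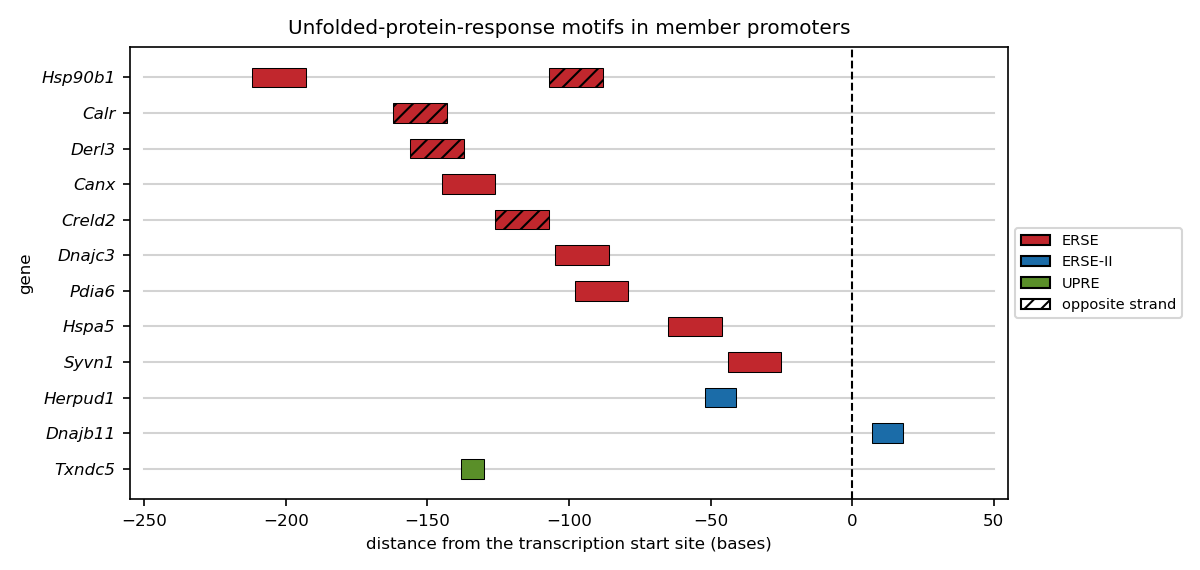
Positions of the 3 motifs in the promoters of the members that hold one, as distance in bases from the start site (dashed line); hatched boxes are matches on the opposite strand. The ERSE of Hspa5 begins 65 bases before the start and the ERSE-II of Dnajb11 begins 7 bases after it, the one match downstream of a start site.

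Values are TPM, transcript shares adjusted for length that add up to 1000000 per library. They carry no read depth, and errors come from the animals alone. A library held 10243 to 12402 genes at 1 TPM or more. The 10 macrophage markers were above 0 in every library, led by Lyz2 (3158 to 14824 TPM). The 11 fibroblast markers summed to 121 to 798 TPM in input and 9.18 to 237 TPM in TRAP, lower in TRAP in 10 of 10 pairs, with 0 to 6 of the 11 at 0 in a library. Markers of erythroid (8), endothelial (6), hepatocyte (8) and granulocyte (8) origin each summed to at most 37.7 TPM. Of B and plasma cell markers, Cd79a, Jchain and Mzb1 were at 0 in all 20 libraries and Ms4a1 reached at most 3.08 TPM, but Cd79b measured 3.56 to 70.0 TPM in input and 0 to 53.2 TPM in TRAP. Mitochondrially encoded mRNA made up 1.26% to 4.75% of input and 0.0298% to 0.861% of TRAP. The input library of WT-280 in hypoxia had the fewest genes at 1 TPM among input libraries (10364) and the lowest mitochondrial share, and that of KO-84 in normoxia the highest such share. Elavl1, which the floxed allele targets, had no lower level in knockout-labelled libraries: it measured 47.3, 25.9, 40.1, 154 and 43.0 TPM in normoxia input. Hypoxia input gave 20.8, 2.07, 29.2, 18.3 and 1.69 TPM. TRAP gave 40.4, 2.88, 26.0, 72.1 and 3.99 TPM in normoxia, and 8.25, 1.14, 0.760, 19.6 and 6.00 TPM in hypoxia. In each of the 4 the genotypes overlapped. The value covers the whole gene and the labels do not name the floxed exons, so it may not check the deletion, and every difference between genotypes rests on the labels. In bulk RNA, fewer cells of a type and less RNA per cell cannot be told apart.

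Together the members made up 0.331% to 0.478% of the transcripts in input and 0.275% to 0.361% in TRAP. Levels spanned from Ppib, cyclophilin B, a proline isomerase (505 TPM on average in input, 487 in TRAP), to Hyou1, an Hsp70-like exchange factor for BiP (3.72 and 2.44 TPM). Sec61b, the beta subunit of the channel, followed at 440 and 565 TPM, and Ssr4, the delta subunit of the receptor complex, at 327 and 359 TPM. Calr was the most abundant chaperone in input (283 TPM on average), ahead of Hsp90b1 and the disulfide isomerase P4hb (both 190 TPM), the gamma subunit Ssr3 (179.1 TPM) and Hspa5 (172 TPM). These last 4 did not separate beyond their spread over the libraries, since Hspa5 alone ranged from 17.5 to 347 TPM. The translocon genes summed to the highest level by role (1120 TPM on average in input, 1225 in TRAP), followed by isomerases (962 and 771), the Hsp70 and Hsp90 group (741 and 541), lectins (427 and 255), degradation factors (296 and 269) and sensors with their factor Xbp1 (145 and 89.0). Among the sensors, Ern1 averaged 10.1 TPM in input and 7.13 in TRAP, and Atf6 19.8 and 11.8 TPM.

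**Figure D2:**
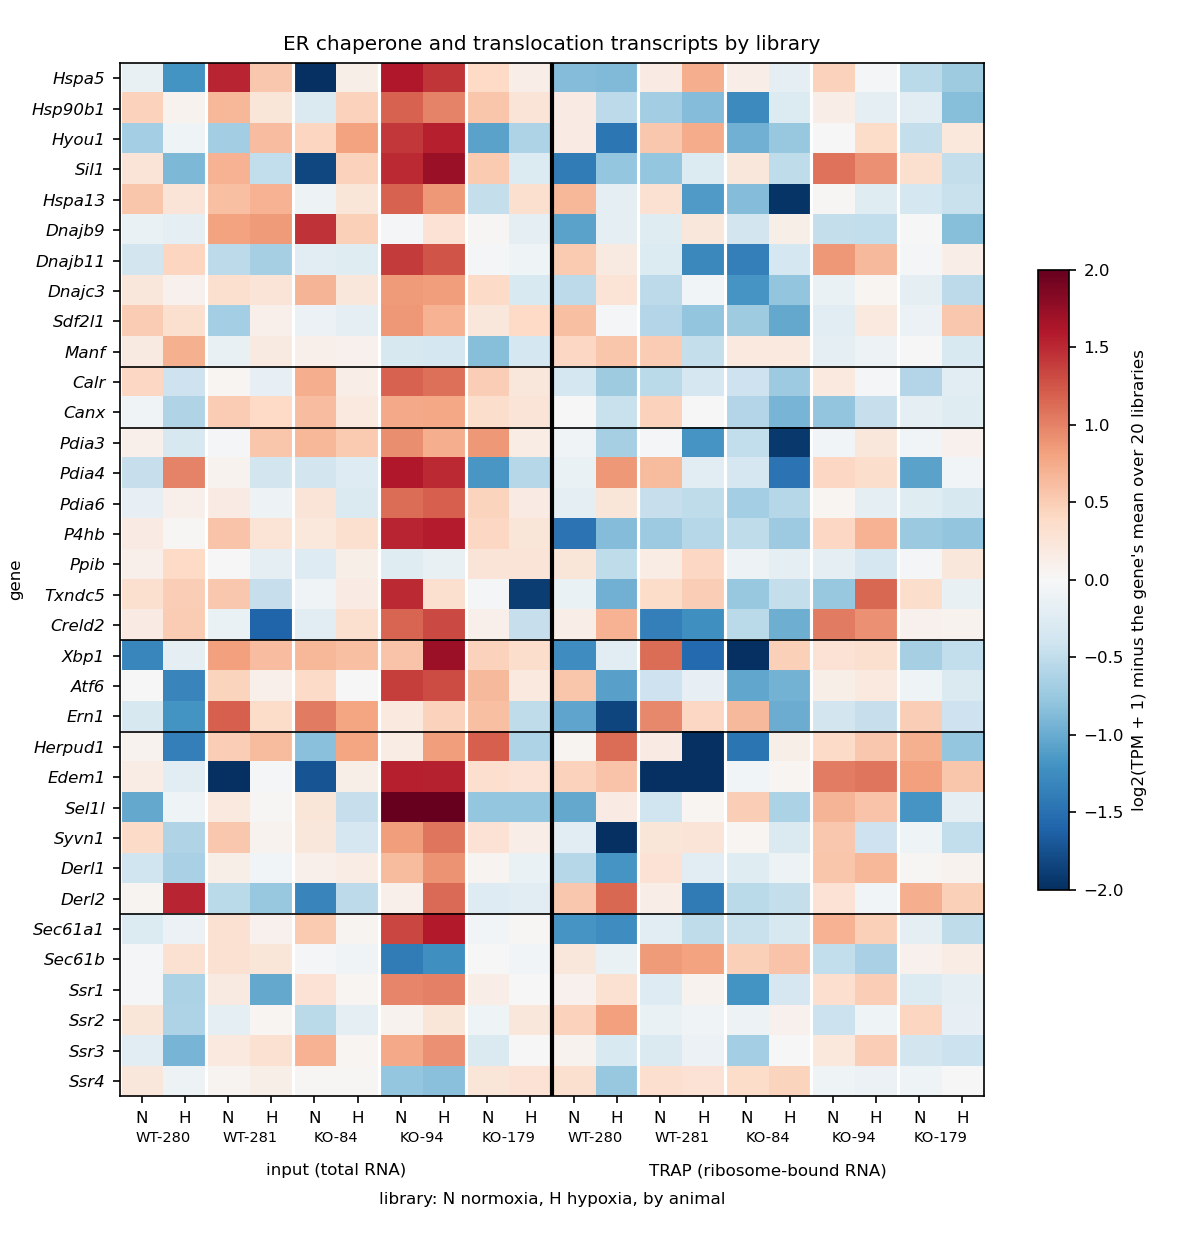
Each row is a gene, grouped by role, and each column a library, input left and TRAP right (N normoxia, H hypoxia); colour is log2(TPM + 1) minus the gene's mean over the 20 libraries, limited to 2 either way. The columns of KO-94 in input are the reddest for most genes and the bluest for Sec61b.

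The first question was which of these mRNAs were over- or under-represented on tagged ribosomes. P4hb, the founding protein disulfide isomerase, was lower in TRAP than in input in every animal under both oxygen levels, and Calr, the ER lectin that also stores calcium, was likewise lower in all 10 pairs. In normoxia P4hb measured 137, 180, 141, 351 and 162 TPM in input, and 43.2, 73.2, 85.6, 163 and 72.1 TPM in TRAP. KO-94 was highest in both fractions, and its TRAP value was the only one to reach the range of the input. In hypoxia P4hb measured 124, 147, 152, 362 and 143 TPM in input and 66.3, 81.7, 73.4, 198 and 69.9 TPM in TRAP. The log2 difference on the log2(TPM + 1) scale, averaged over genotypes, was −1.23 ± 0.39 (SE) in normoxia and −0.92 ± 0.39 in hypoxia, beside medians of −0.28 and −0.10 over all genes tested. Without regard to animal, it did not pass limma's test (Benjamini-Hochberg adjusted p = 0.327 and 0.907). With the animal as a block, the SE was 0.16 and P4hb was called lower in TRAP in both (adjusted p = 0.0012 and 0.016). The block is 1 effect per animal, shared by its libraries of both oxygen levels, and does not pair the fractions of each lysate separately.

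Calr measured 274, 211, 340, 466 and 290 TPM in normoxia input and 162, 142, 154, 235 and 136 TPM in the matched TRAP libraries. The fractions overlapped only through KO-94, whose TRAP value exceeded the input of WT-281. In hypoxia the input values were 154, 184, 227, 442 and 241 TPM and the TRAP values 125, 163, 124, 202 and 178 TPM. The difference was −0.86 ± 0.28 in normoxia (limma adjusted p = 0.335; 0.0191 with the block, SE 0.18) and −0.52 ± 0.28 in hypoxia (0.994; 0.226 with the block). P4hb kept its normoxia call with the block when any 1 animal was left out (adjusted p from 0.008 to 0.0353), but its hypoxia call was lost each time (from 0.0519 to 0.19), with values from −0.95 to −0.90. The normoxia call of Calr held without WT-281 (0.0384) and was lost without WT-280 (0.0727), KO-84 (0.0977), KO-94 (0.137) or KO-179 (0.0787). Fibroblast markers and mitochondrial mRNA were also lower in TRAP in 10 of 10 pairs. The summed macrophage markers were lower in 8 of 10 pairs, with medians of 12136 TPM in input and 12157 TPM in TRAP. The part of any of these in the differences was not tested.

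By count, 0 of 34 members passed in either oxygen level without the block, where 34 of 14842 genes (0.229%) passed in normoxia and 13 (0.0876%) in hypoxia, all of them lower in TRAP. At an unadjusted p under 0.05 there were 5 members and 1466 genes in normoxia, and 4 members and 772 genes in hypoxia. With the block, 2 of 34 members passed in normoxia (P4hb and Calr), beside 474 of 14842 genes (3.19%; 94 higher and 380 lower), and 1 of 34 (P4hb) in hypoxia, beside 61 genes (0.411%; 3 higher and 58 lower). Of the members, 25 of 34 were lower in TRAP in normoxia and 29 of 34 in hypoxia, and their median was −0.40 and −0.34, beside −0.28 and −0.10 for all genes. Lower in all 10 pairs were 5 of 34 members (14.7%), against 481 of 14842 genes (3.24%). These shares are not matched for level: genes tested needed 1 TPM in only 2 libraries, and most members lay well above that.

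Among the chaperones of the Hsp70 and Hsp90 group, 8 of 10 were lower in TRAP in normoxia and 10 of 10 in hypoxia. Hsp90b1, which encodes GRP94, the ER member of the Hsp90 family, was lower in 10 of 10 pairs. It measured 183, 210, 108, 302 and 195 TPM in normoxia input and 149, 81.4, 54.4, 145 and 113 TPM in normoxia TRAP. In hypoxia, input gave 139, 156, 183, 265 and 158 TPM and TRAP 91.2, 72.4, 109, 115 and 73.0 TPM. The hypoxia ranges did not overlap, the lowest input value being above the highest TRAP value. Its difference was −0.88 ± 0.34 in normoxia and −0.93 ± 0.34 in hypoxia (limma adjusted p = 0.41 and 0.766; 0.0626 and 0.128 with the block). Dnajc3, a co-chaperone of BiP that also inhibits eIF2 alpha kinases, gave −0.96 ± 0.34 in normoxia (adjusted p = 0.369; 0.0566 with the block), and Dnajb9, the co-chaperone ERdj4, −0.88 ± 0.40 (0.478; 0.0945). In hypoxia, Hspa13, an Hsp70-like ATPase of the microsomes, gave −1.25 ± 0.45 (0.72; 0.131 with the block). Manf, a secreted ER stress protein that binds BiP, was higher in TRAP in 8 of 10 pairs. In normoxia it was higher in all 5 animals, with 83.2 to 172 TPM in input and 132 to 216 TPM in TRAP. In hypoxia it was higher in 3 animals and lower in 2, with a mean difference of −0.08.

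Hspa5 itself did not go one way. In normoxia it measured 102, 329, 17.5, 347 and 151 TPM in input and 61.9, 127, 125, 158 and 78.1 TPM in TRAP, so it was lower in TRAP in every animal except KO-84, whose input value was the lowest of the 20. In hypoxia the input gave 49.2, 167, 124, 310 and 126 TPM and TRAP 61.4, 190, 101, 111 and 69.2 TPM, higher in TRAP in both controls and lower in all 3 knockout-labelled animals. The hypoxia pairs differed by 0.31, 0.19, −0.29, −1.47 and −0.85 on the log2 scale. Over both oxygen levels, 7 of 10 pairs were lower. Whether the difference of Hspa5 depends on genotype was not tested.

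Of the lectins, Canx, the membrane-bound partner of Calr, gave −0.54 ± 0.29 in normoxia and −0.54 ± 0.29 in hypoxia (limma adjusted p = 0.554 and 0.994), with 8 of 10 pairs lower. Its pairs gave 0.07, −0.06, −1.21, −1.53 and −0.54 in normoxia and 0.15, −0.39, −1.13, −1.23 and −0.50 in hypoxia. Whether this difference depends on genotype was not tested. Among isomerases, Pdia6 gave −0.61 ± 0.32 in normoxia (0.544). Pdia3, the isomerase that works with the lectins on glycoproteins, was lower in 10 of 10 pairs although by less than 0.01 on the log2 scale in WT-281 in normoxia, and gave −1.02 ± 0.40 in hypoxia (adjusted p = 0.851; 0.214 with the block). Its input in hypoxia was 15.4, 28.8, 28.3, 32.5 and 21.5 TPM and its TRAP 11.8, 7.97, 4.34, 22.8 and 20.6 TPM. Ppib, the most abundant member in input, was lower in 5 pairs and higher in 5. The sensors Ern1 and Atf6 and the transcription factor gene Xbp1 were each lower in 8 of 10 pairs, with −0.94 ± 0.55 for Xbp1 in hypoxia (adjusted p = 1).

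The translocon divided by subunit. Sec61a1, the pore-forming subunit, was lower in TRAP in 10 of 10 pairs, with 31.96, 48.0, 56.0, 98.6 and 37.2 TPM in normoxia input and 16.4, 32.9, 28.2, 63.1 and 33.7 TPM in TRAP. Its difference was −0.65 ± 0.41 in normoxia and −0.76 ± 0.41 in hypoxia (limma adjusted p = 0.622 and 0.994; 0.103 and 0.155 with the block). Sec61b was higher in TRAP in 9 of 10 pairs. Its normoxia input values were 463, 582, 464, 178 and 474 TPM and its TRAP values 547, 849, 657, 333 and 498 TPM. In hypoxia the input gave 581, 556, 449, 200 and 453 TPM and TRAP 428, 821, 696, 299 and 522 TPM, with WT-280 the one pair that was lower. Ssr4 was higher in 7 of 10 pairs and Ssr2 in 6, while Ssr1 was lower in 7 and Ssr3 in 8. Of the degradation factors, Derl2 was higher in 7 of 10 pairs, and Herpud1, Derl1 and the ubiquitin ligase Syvn1 were each lower in 8. None of these subunits or degradation factors passed the test, with or without the block.

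**Figure D3:**
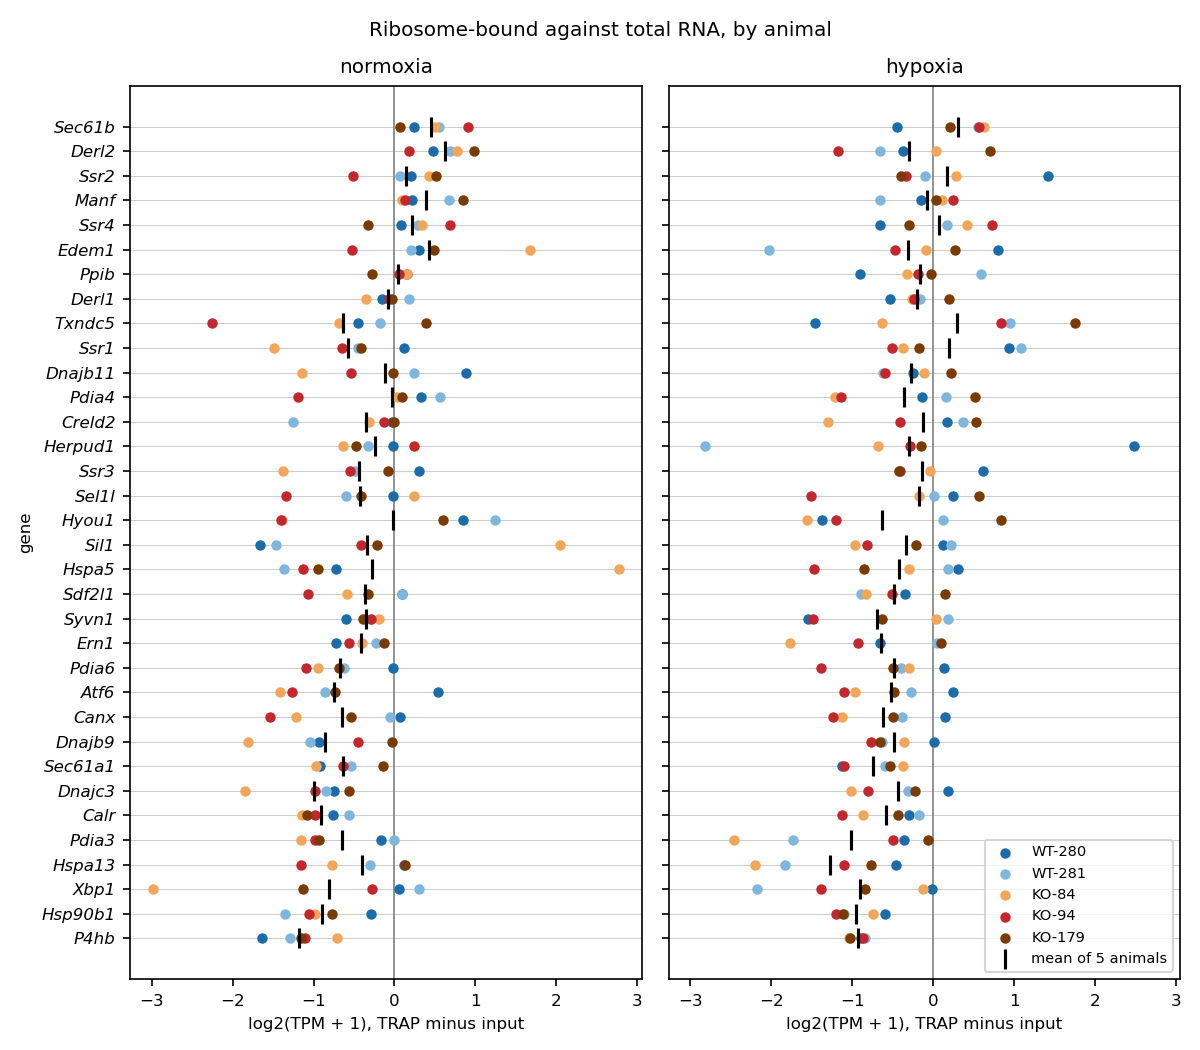
Each point is 1 animal: log2(TPM + 1) in TRAP minus that in input, for normoxia (left) and hypoxia (right), with a bar at the mean of the 5 animals. The points of P4hb, Hsp90b1, Calr, Pdia3 and Sec61a1 lie left of 0 in both panels, and those of P4hb in hypoxia span the narrowest range, from −1.04 to −0.84.

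Of 85 other genes of the pathway tested (22 further folding factors, 21 degradation factors, 18 translocation factors, 12 oligosaccharyltransferase subunits and 12 of the PERK arm and other sensors), 60 were lower in TRAP in normoxia (median −0.41) and 51 in hypoxia (median −0.20). With the block, 3 were called lower and 1 higher in normoxia, beside 474 of all 14842 genes (3.19%). In hypoxia 0 were called with the block, beside 61 genes (0.411%). There, 20 of the 85 and 1829 of all 14842 genes had an unadjusted p under 0.05. Prkcsh, the beta subunit of the glucosidase that trims glycans for the calreticulin cycle, gave −1.40 ± 0.42 (limma adjusted p = 0.297; 0.0132 with the block). Tusc3, an oligosaccharyltransferase subunit, gave −0.99 ± 0.33 (0.339; 0.0251) and Vcp, the ATPase that extracts degradation substrates, −0.84 ± 0.50 (0.601; 0.0309). Ost4, a small oligosaccharyltransferase subunit, was the one called higher (0.67 ± 0.38, limma adjusted p = 0.58, and 0.0345 with the block). Whether these calls hold with an animal left out was not examined. Without the block, 0 of the 85 passed in either oxygen level, with 13 at an unadjusted p under 0.05 in normoxia and 5 in hypoxia, beside the 1466 and 772 of all genes.

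The next question was whether hypoxia changed these mRNAs. In total RNA, averaged over genotypes, 12 members were higher and 22 lower in hypoxia, with a median of −0.11 beside −0.15 for all genes. Limma called 0 of 34 members and 0 of 13901 genes (0%), with 0 members and 321 genes at an unadjusted p under 0.05. In TRAP, 13 were higher and 21 lower (median −0.09, all genes 0.01), with 0 of 34 members and 0 of 13522 genes (0%) called, and 0 members and 339 genes at an unadjusted p under 0.05. Neither fraction gave a call with the block, with which 2 members and 1316 genes in input, and 0 members and 945 genes in TRAP, reached an unadjusted p under 0.05. Within each genotype, 0 members and 0% of genes were called in control input (median of members −0.12), knockout-labelled input (−0.01), control TRAP (−0.30) and knockout-labelled TRAP (−0.02), where 445, 132, 444 and 148 genes had an unadjusted p under 0.05.

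The change of Hspa5 and Xbp1 differed in sign between animals. Hspa5 gave −0.12 ± 0.71 in input and −0.02 ± 0.41 in TRAP (limma adjusted p = 0.999 and 1). In input it was lower in hypoxia in both controls, KO-94 and KO-179, but in KO-84 it was 17.5 TPM in normoxia and 124 TPM in hypoxia; without that normoxia library, the change in knockout-labelled input turned from 0.78 ± 0.90 to −0.44. Xbp1 measured 30.2, 135, 121, 114 and 106 TPM in normoxia input and 66.5, 117, 116, 251 and 97.5 TPM in hypoxia. It was higher in WT-280 and KO-94 and lower in the other animals, with a mean change of 0.39 ± 0.43 (adjusted p = 0.999). In TRAP it measured 31.5, 167, 14.46, 93.4 and 47.7 TPM in normoxia and 66.0, 25.2, 106, 95.5 and 54.2 TPM in hypoxia, lower in WT-281 and higher in KO-84 by more than 2 on the log2 scale, and 0.09 ± 0.58 on average (1). TPM per gene do not separate spliced from unspliced Xbp1.

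Members with the same sign in all 5 animals were few. In input these were Calr (−0.41 ± 0.30 averaged over genotypes), Atf6 (−0.57 ± 0.44) and Dnajc3, which were lower, and Hyou1, which was higher at 0.654 to 8.30 TPM in normoxia and 1.26 to 9.24 TPM in hypoxia. That is 3 of 34 members lower, against 7.02% of genes, and 1 higher, against 2.41% of genes. In TRAP, Hspa13 (−0.82 ± 0.52) and Ern1 (−0.77 ± 0.61) were lower, 2 of 34 against 2.8% of genes, and Ssr1 was higher (0.32 ± 0.43), 1 of 34 against 3.45%. Other members with the smallest p in input were Ssr1 (−0.52 ± 0.36), Txndc5 (−0.68 ± 0.50), Edem1 (0.78 ± 0.63), Derl2 (0.62 ± 0.51), Ern1 (−0.61 ± 0.50) and Syvn1 (−0.44 ± 0.40), and in TRAP Syvn1 (−0.76 ± 0.52), Pdia3 (−0.61 ± 0.50), Ssr4 (−0.26 ± 0.31), Dnajc3 (0.35 ± 0.42) and Manf (−0.24 ± 0.32). Each of these had a limma adjusted p of 0.999 or more. Of the 85 other pathway genes, 57 were lower in input in hypoxia, where the median of all genes was itself −0.15. Atf4, the transcription factor of the PERK arm, was among the 57 (−0.55 ± 0.30). Of the 85, 0 were called in either fraction.

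**Figure D4:**
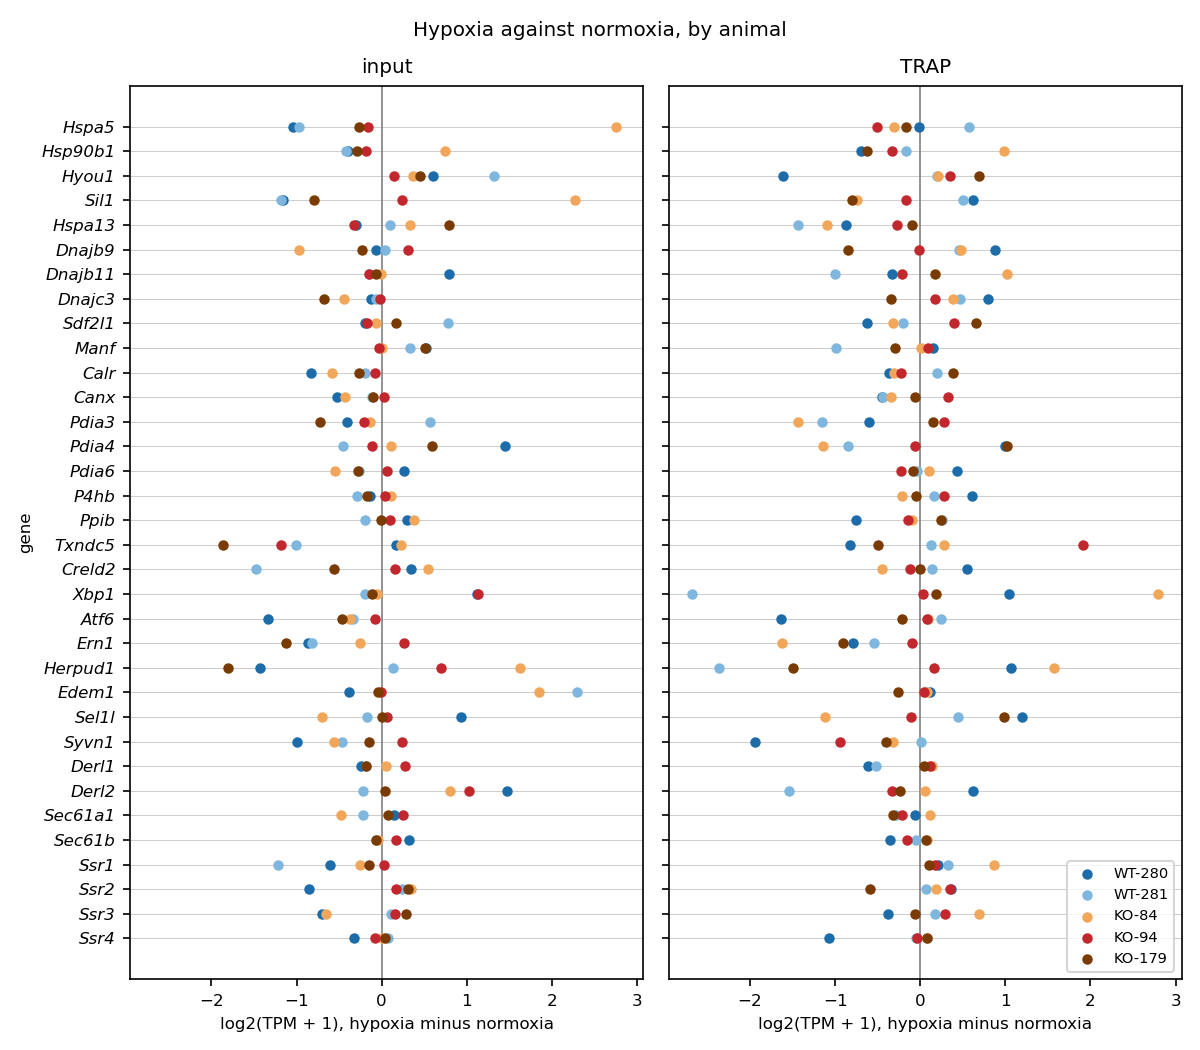
Each point is 1 animal: log2(TPM + 1) in hypoxia minus that in normoxia, for input (left) and TRAP (right). Points of an animal fall on both sides of 0 for most genes, and KO-84 is the point farthest right for Hspa5 and Sil1 in input.

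Between genotypes, no member passed the test. In normoxia input 22 of 34 members were higher in the knockout-labelled libraries (median 0.34, all genes 0.11), in hypoxia input 25 of 34 (0.42, all genes 0.36), in normoxia TRAP 14 of 34 (−0.19, all genes 0.05) and in hypoxia TRAP 21 of 34 (0.24, all genes 0.06). Leaving out 1 animal moved these medians to between 0.06 (without WT-280) and 0.46 in normoxia input, 0.16 (without KO-94) and 0.67 in hypoxia input, −0.24 and 0.14 (without KO-84, the sign turning) in normoxia TRAP, and 0.01 (without KO-94) and 0.33 in hypoxia TRAP. Limma called 0 of 34 members in each of the 4, and 0% of 13901 genes in input and of 13522 in TRAP, with 304, 901, 704 and 585 genes at an unadjusted p under 0.05. A single member had an unadjusted p under 0.05 in hypoxia input and another in normoxia TRAP. In hypoxia input it was Ssr1, the alpha subunit of the receptor complex. It measured 14.53 and 10.9 TPM in controls against 23.9, 47.6 and 23.0 TPM, and differed by 1.18 ± 0.51 (adjusted p = 0.736). In normoxia TRAP it was Sil1, the other exchange factor of BiP, with 6.54 and 10.6 TPM against 22.3, 41.1 and 23.7 TPM (1.63 ± 0.64, adjusted p = 0.918).

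In hypoxia input, Calr differed by 0.78 ± 0.42, Atf6 by 1.11 ± 0.62, Sil1 by 1.33 ± 0.85, Derl1 by 0.66 ± 0.46, Creld2 by 0.94 ± 0.71, Manf by −0.64 ± 0.42 and Sec61b by −0.72 ± 0.52 (limma adjusted p from 0.736 to 0.752). In normoxia TRAP, Edem1, a lectin of the degradation pathway, differed by 1.43 ± 0.83, P4hb by 0.82 ± 0.57, Sec61a1 by 0.73 ± 0.60 and Canx by −0.74 ± 0.46 (adjusted p from 0.922 to 0.952). Hspa5 differed by −0.90 ± 1.01 and 0.89 ± 1.01 in input in normoxia and hypoxia, and by 0.38 ± 0.58 and −0.23 ± 0.58 in TRAP (adjusted p from 0.823 to 1). Xbp1 differed by 0.81 ± 0.61, 0.67 ± 0.61, −0.84 ± 0.82 and 0.99 ± 0.82 in the same order (from 0.782 to 1). Some of these signs depended on single animals: without WT-280 the normoxia input value of Xbp1 was −0.25, and without KO-84 that of Hspa5 was 0.32. With an animal left out, signs also turned for both genes in normoxia TRAP and for Hspa5 in hypoxia TRAP.

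KO-94 stood apart from the other animals. In normoxia input KO-94 was the highest of the 5 animals for 25 of 34 members (73.5%), beside 57.8% of all genes averaging at least 5 TPM, and in hypoxia input for 26 of 34 (76.5%, all genes 59.1%). In TRAP it was the highest for 15 of 34 members (44.1%) in each oxygen level, beside 41% and 35.2% of genes. For 11 members it was the highest in all 4 combinations of oxygen and fraction: Calr, Creld2, Derl1, Dnajb11, Edem1, P4hb, Sec61a1, Sel1l, Sil1, Ssr1 and Ssr3. These were 11 of the 32 members averaging at least 5 TPM in all 4 combinations (34.4%), beside 1780 of 7377 genes (24.1%). Sel1l, the adaptor of the ubiquitin ligase Syvn1, measured 81.5 and 85.1 TPM in KO-94 input, where the other 4 animals lay between 8.97 and 23.0 TPM. Dnajb11, the co-chaperone ERdj3, measured 142 and 128 TPM, with 33.1 to 71.8 TPM in the other animals. Sec61b was lowest in KO-94 in all 4 combinations, and Ssr4 was also low in its input (195 and 185 TPM, other animals 311 to 407 TPM). The input libraries of KO-94 had the most genes at 1 TPM (12361 and 12402) and the lowest fibroblast marker sums among input libraries (174 and 121 TPM), and the part of either in these levels was not tested.

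**Figure D5:**
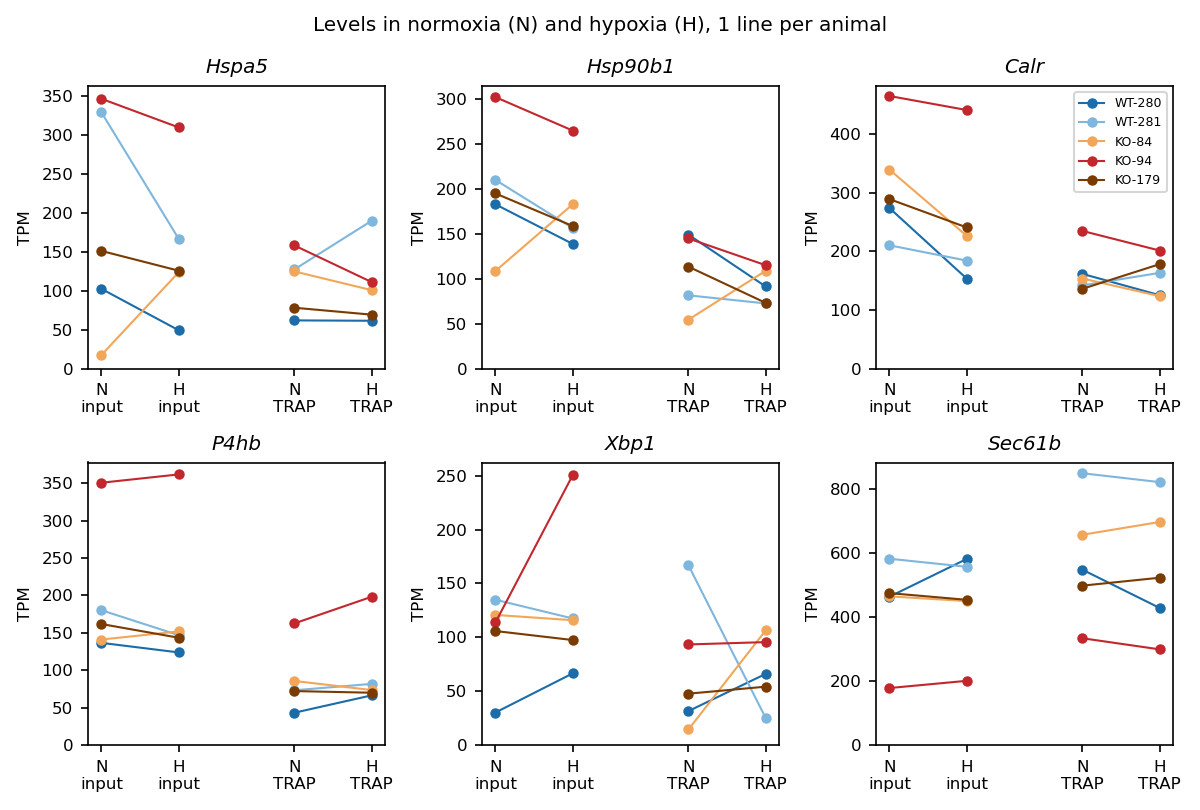
TPM of 6 members in normoxia (N) and hypoxia (H), input and TRAP, with 1 line per animal. KO-94 is the top line for Calr and P4hb in both fractions and the bottom line for Sec61b, and the lines of Xbp1 cross in both fractions.

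Whether hypoxia acted differently by genotype was tested as an interaction. Limma called 0 of 34 members and 0% of genes in both fractions (13901 in input and 13522 in TRAP), with 0 members and 261 and 284 genes at an unadjusted p under 0.05. The members with the smallest p in input were Sil1 (1.75 ± 1.20) and Hspa5 (1.79 ± 1.43), both of which had their lowest input value in KO-84 in normoxia, and in TRAP Xbp1 (1.82 ± 1.16; each adjusted p = 1). Whether hypoxia changed the ratio of TRAP to input was tested in the joint fit, and 0 of 34 members and 0 of 14842 genes (0%) were called with or without the block (0%), with 0 members and 353 genes at an unadjusted p under 0.05 without it and 1 member and 907 genes with it. The median of the members was −0.08 (15 higher, 19 lower), beside 0.16 for all genes. Ssr1 gave 0.84 ± 0.52, Hspa13 −0.90 ± 0.63, Manf −0.54 ± 0.40 and Derl2 −0.94 ± 0.76 (adjusted p = 1 each).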

How the data were processed

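Poly(A) RNA was sequenced from 20 libraries of 5 mice. The authors deposited 1 TPM value per gene and library, in an input and a TRAP table. The unit was read from the values, each library summing to 1000000; their computation is not described in the labels. The submitters' processing notes name HISAT, DESeq2 and GRCm38, without versions. Symbols turned into dates (27 per table) were matched by gene ID, and 20 per-animal columns of ratios were not used.

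Values were fitted as log2(TPM + 1) in limma 3.58.1 (R 4.3.3; mean-variance trend, 1 mean per group) keeping genes that reached 1 TPM in 2 or more libraries: separately in input and TRAP, jointly for TRAP against input. Tests were two-sided, and Benjamini-Hochberg adjusted p under 0.05 over all genes counted as called. Given beside TPM are folds on the log2(TPM + 1) scale, which understate changes of low genes. Most log2 changes given are of called members, of the 8 with the smallest p at 5 TPM or more, and of Hspa5 and Xbp1. Not all of these are printed for every comparison. Other pathway genes are named when called, or else up to 3 by p. Libraries of 1 animal are paired by design, and their deviations from group means correlated at 0.15 to 0.76, so results of a fit with the animal as replicate block are given where they change a call; blocked fits without an animal and with quantile normalization were added after the data were seen. Python 3.11.15 (pandas 2.3.3, matplotlib 3.10.9) made tables and plots. The fit was checked on simulated data with planted changes larger than those of P4hb and Calr, so its power for such differences was not examined. The members and gene lists were chosen with earlier results of these data known.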

Additional observations from a re-analysis of the deposited data

Results flagged for a closer look

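In TRAP, 3 of 34 members differed with hypoxia in opposite directions in the controls and the knockout-labelled animals, without exception among the 5 animals. Some of these differences were close to 0. Sil1 was higher in hypoxia in both controls (0.62 and 0.50 on the log2 scale) and lower in the knockout-labelled animals (−0.74 in KO-84, −0.17 in KO-94, −0.80 in KO-179), and the fitted difference between genotypes was −1.13. Creld2 was higher in both controls (0.55 and 0.14) and lower in the knockout-labelled animals (−0.45, −0.12 and −0.01), with a difference of −0.54. Derl1 was lower in both controls (−0.61 and −0.52) and higher in the others (0.14, 0.11 and 0.04), with a difference of 0.66. None passed the interaction test in limma (adjusted p = 1 each). Among all genes averaging at least 5 TPM in TRAP, 452 of 8146 (5.55%) showed the same kind of split, so it is not particular to these members. In input, 0 members did, beside 468 of 8792 genes (5.32%).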

How the results depend on the processing

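The depth behind TPM is unknown, and with 2 or 3 animals per group only large differences could pass. Without the animal as replicate block, 0 members passed in all 15 comparisons under each alternative tried, leaving out each animal included. With the replicate block, 2 members passed for TRAP against input in normoxia (P4hb −1.23, Calr −0.86) and 1 in hypoxia (P4hb −0.92), also with quantile normalization (2 and 1); with an animal left out as well, 1 to 2 passed in normoxia and 0 in hypoxia. The block changed no other member's call. All genes called for TRAP against input numbered 34 in normoxia and 13 in hypoxia, 474 and 61 with the block (55 to 444 and 1 to 100 with an animal left out as well; 178 and 60 with quantile normalization added) and 7 and 5 with quantile normalization alone. Without the block, 15, 1, 1 and 0 were called in normoxia without KO-179, WT-280, WT-281 and KO-84, and 8, 6, 1, 0 and 2 in hypoxia without KO-179, WT-280, WT-281, KO-84 and KO-94. Without the normoxia input library of KO-84 they were 7 and 6, and in hypoxia 8 without the hypoxia input library of WT-280. In hypoxia they were 21 with no filter and 1 with pseudocount 0.1 or only the libraries compared. No filter gave 13 genes for hypoxia in control TRAP, 10 between genotypes in hypoxia TRAP and 14 for the hypoxia change of TRAP against input, each 0 as reported; the last was 3 and 11 with the block without WT-280 and WT-281. Other comparisons gave at most 2 genes under any alternative.

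Quantile normalization moved the median of all genes for TRAP against input in normoxia from −0.277 to 0.0129 and that of the members to −0.180 (also with the block), and the members' median for hypoxia in control input to −0.0911. Without the hypoxia input library of WT-280, the members' median for hypoxia was 0.00683 in input averaged over genotypes and −0.0160 in control input, and −0.0388 for the interaction in input. Without the normoxia input library of KO-84 it was −0.224 in knockout-labelled input. With each animal left out, that median ranged from −0.219 to −0.115 in control input, from −0.299 to −0.0179 in control TRAP, and from 0.0621 to 0.275 for the interaction in TRAP. Between genotypes it ranged from 0.0578 to 0.460 in normoxia input, 0.161 to 0.665 in hypoxia input, −0.237 to 0.139 in normoxia TRAP and 0.00651 to 0.331 in hypoxia TRAP. For hypoxia it ranged from −0.122 to −0.0471 in input and −0.114 to −0.0250 in TRAP averaged over genotypes, and from −0.0645 to 0.0293 in knockout-labelled TRAP. The causes were not tested.

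Signs that turned when an animal was left out belonged to differences that were not called as reported. For hypoxia averaged over genotypes, Hspa5 ranged from −0.611 to 0.144 in input (0.119 without KO-94) and from −0.169 to 0.122 in TRAP (0.0206 without KO-94), Xbp1 in TRAP from −0.839 to 1.02 (−0.356 without KO-84) and Manf in TRAP from −0.526 to 0.0398. In knockout-labelled input the ranges were −0.212 to 1.30 for Hspa5, −0.0274 to 0.917 for Edem1 and −0.281 to 1.25 for Sil1. In control input Edem1 ranged from −0.383 to 2.29, in control TRAP Syvn1 from −1.94 to 0.00718, and in knockout-labelled TRAP Txndc5 from −0.107 to 1.10. Between genotypes, the ranges in normoxia input were −0.249 to 1.87 for Xbp1, −0.104 to 2.37 for Edem1 and −1.80 to 0.316 for Hspa5, and in hypoxia input −0.118 to 2.00 for Creld2. In normoxia TRAP they were −0.140 to 0.891 for Hspa5 and −2.02 to 0.349 for Xbp1. In hypoxia TRAP they were −0.867 to 0.0133 for Ssr2, −0.0180 to 2.61 for Edem1, −0.0349 to 1.43 for Dnajb11 and −1.04 to 0.574 for Hspa5. For the interaction, Pdia3 in input ranged from −0.930 to 0.0523 and Xbp1 in TRAP from −0.0403 to 3.68. Without the hypoxia input library of WT-280, Hspa5 in input was 0.319 for hypoxia averaged over genotypes and Herpud1 −0.180 for the interaction in input. Without the normoxia input library of KO-84, the hypoxia changes in knockout-labelled input were −0.436 for Hspa5, −0.291 for Edem1 and −0.372 for Sil1, and the genotype difference of Hspa5 in normoxia input was 0.316.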
